A study of Mus musculus with 12 samples.

Results

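Cells obtain cholesterol by making it or by taking it up, and the genes described here cover both routes in mouse small intestinal epithelium. They are 8 genes chosen by name out of the 34245 genes in the count table. *Hmgcs1* and *Idi1* encode enzymes of the mevalonate and isoprenoid steps. *Fdft1*, *Sqle*, *Lss* and *Dhcr7* encode enzymes of the squalene and sterol steps. *Srebf2* encodes SREBP2, the transcription factor that drives the pathway, and *Npc1l1* encodes the transporter by which enterocytes take cholesterol from the gut lumen. All 8 were measured in all 12 libraries, and all 8 passed the filter on low counts in every comparison.

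RNA was sequenced from cells of male C57BL/6 mice that carry the *Lgr5*-EGFP-IRES-CreERT2 knock-in allele, young mice at a mean of 33 weeks of age and aged mice of more than 2 years. Intestinal stem cells (ISC) were the live cells of crypts with high GFP, which the *Lgr5* locus drives. Adult enterocytes (AE) were the live villus cells with high Epcam that stained for neither CD31 nor CD45. This gate takes villus epithelium as a whole and not enterocytes alone. There were 3 libraries in each of the 4 groups: young ISC, aged ISC, young AE and aged AE. No treatment was applied, and mice of both ages carried the same allele. Each library has a code number, which 1 ISC and 1 AE library of the same age share, and the libraries are named by that code below.

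Library totals ranged from 11893817 to 110794420 counts, and the deepest, young AE code 3, is far from the others, which end at 26796461. The labelled cell types held against their markers. Levels are given as CPM, the count scaled to the size of its library. The summed level of 10 stem cell markers was between 5935 and 8400 CPM in ISC and between 97.0 and 644 CPM in AE. The summed level of 20 enterocyte markers was between 80149 and 126477 CPM in AE, against 1923 to 10699 CPM in ISC, so that ISC libraries were not free of enterocyte transcripts. In AE, 5 goblet cell markers summed to between 21839 and 41056 CPM. In these bulk samples, fewer cells of a type and less RNA per cell cannot be told apart.

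Cholesterol is built from acetyl-CoA through mevalonate, isoprenoid units, squalene and lanosterol. SREBP2 waits in the membrane of the endoplasmic reticulum with its escort Scap. When sterols are scarce it is carried to the Golgi, cut free, and moves to the nucleus, where it raises the genes of synthesis and of lipoprotein uptake. When sterols are plentiful, Insig proteins hold it back. In the villus, NPC1L1 on the brush border takes up dietary and biliary cholesterol, SOAT2 turns it into esters for chylomicrons, and the ABCG5 and ABCG8 pair pumps sterols back into the lumen.

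Promoter sequences show what these genes share outside the counts. RefSeq promoters of build GRCm38.p6, each running from 250 bases before to 50 bases after a start site, were found for 6 of the 8 genes: *Hmgcs1*, *Srebf2*, *Lss*, *Idi1*, *Npc1l1* and *Dhcr7*, the last with 3 start sites. The entries for *Sqle* and *Fdft1* were not in the table used. Each was searched on both strands for 3 motifs. These were TCACNCCA, a core of the sterol regulatory element that SREBP binds, CCAAT, the box bound by NF-Y, and GGGCGG, the GC box bound by Sp1. The 3 motifs do not overlap one another in the sequences shown. The 4 below are shown because *Hmgcs1* and *Srebf2* hold all 3 motifs, because *Lss* varied with *Srebf2* among libraries, and because *Npc1l1* is the uptake gene. Each is written 5′ to 3′ on the strand of the gene, and capitals mark the motif matches.

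Hmgcs1 promoter, chr13:119690101-119690400, + strand: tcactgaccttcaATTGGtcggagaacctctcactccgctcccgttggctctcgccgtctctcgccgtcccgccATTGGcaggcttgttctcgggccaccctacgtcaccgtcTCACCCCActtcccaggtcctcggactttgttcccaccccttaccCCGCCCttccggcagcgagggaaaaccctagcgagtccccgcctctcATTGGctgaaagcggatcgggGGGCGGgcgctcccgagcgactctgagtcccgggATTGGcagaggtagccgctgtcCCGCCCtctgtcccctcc

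Srebf2 promoter, chr15:82147019-82147318, + strand: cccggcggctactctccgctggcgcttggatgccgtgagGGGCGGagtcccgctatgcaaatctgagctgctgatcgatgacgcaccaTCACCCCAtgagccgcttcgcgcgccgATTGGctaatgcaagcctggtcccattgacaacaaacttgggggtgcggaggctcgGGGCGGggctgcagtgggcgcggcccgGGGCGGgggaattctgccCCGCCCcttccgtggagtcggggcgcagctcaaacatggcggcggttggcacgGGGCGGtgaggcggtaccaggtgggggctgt

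Lss promoter, chr10:76531355-76531654, + strand: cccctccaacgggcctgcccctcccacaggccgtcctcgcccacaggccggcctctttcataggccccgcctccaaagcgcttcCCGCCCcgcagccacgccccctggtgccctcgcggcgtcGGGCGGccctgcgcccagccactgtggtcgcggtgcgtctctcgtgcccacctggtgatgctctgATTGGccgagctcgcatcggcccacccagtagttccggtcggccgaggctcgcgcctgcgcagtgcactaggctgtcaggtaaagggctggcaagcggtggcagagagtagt

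Npc1l1 promoter, chr11:6230196-6230495, - strand: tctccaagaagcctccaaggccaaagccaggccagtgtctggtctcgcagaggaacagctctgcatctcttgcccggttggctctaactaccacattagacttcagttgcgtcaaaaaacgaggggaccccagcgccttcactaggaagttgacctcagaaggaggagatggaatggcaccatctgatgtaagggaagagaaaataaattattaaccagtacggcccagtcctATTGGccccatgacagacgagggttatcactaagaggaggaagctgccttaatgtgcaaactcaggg

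The sterol element core was found once in the *Hmgcs1* promoter, its first base 137 bases before the start, and once in the *Srebf2* promoter, 162 bases before it, in both as TCACCCCA. It was in none of the windows of *Lss*, *Idi1*, *Npc1l1* and *Dhcr7*. Of all 32851 promoters of this length, 4.36% held it. Among the 41 promoters of the other cholesterol and fatty acid genes described below, 1 held it. The CCAAT box was in the window of all 6 genes, with 4 matches in *Hmgcs1*, 2 in *Idi1*, 2 at 1 start site of *Dhcr7* and 1 each in *Srebf2*, *Lss* and *Npc1l1*. By promoter, 6 of the 8 entries of these genes held it, against 37.4% of all promoters and 24 of the 41 (58.5%) of the other pathway genes. The GC box was in 5 of the 6 genes, with 5 matches in *Srebf2* and none in *Npc1l1*. By promoter, 6 of the 8 entries held it, against 35.7% of all promoters and 26 of the 41 (63.4%) of the other pathway genes. A match describes these letters only, and a missing match says nothing of the factor.

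The levels per kb of exon (CPM per kb) put the 8 genes in nearly the same order in every group. The length is that of all annotated exons of a gene merged, in an annotation that may not be the authors'. It was longest for *Lss*, at 10787 bases, against 3505 (*Idi1*) to 7184 (*Srebf2*) for the others, and the order depends on it. In young AE, *Npc1l1* was first at 539 ± 84.6 CPM per kb (SD, n = 3), followed by *Hmgcs1* at 46.7 ± 7.12 and *Srebf2* at 18.3 ± 3.35. *Sqle* at 12.3 ± 5.02, *Dhcr7* at 12.2 ± 0.939 and *Fdft1* at 9.12 ± 1.20 came next, *Lss* was at 2.27 ± 0.517, and *Idi1* was last at 1.23 ± 0.601. The ranges of *Srebf2* and *Sqle*, of *Sqle* and *Dhcr7* and of *Lss* and *Idi1* overlapped there. In young and aged ISC, *Npc1l1* was at 36.9 ± 15.5 and 24.1 ± 10.1 CPM per kb, and its range overlapped that of *Hmgcs1*, at 24.8 ± 9.12 and 24.0 ± 2.45. The uptake gene therefore stood clear of every enzyme in AE. In ISC it stood clear of every enzyme but *Hmgcs1*.

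**Figure D1:**
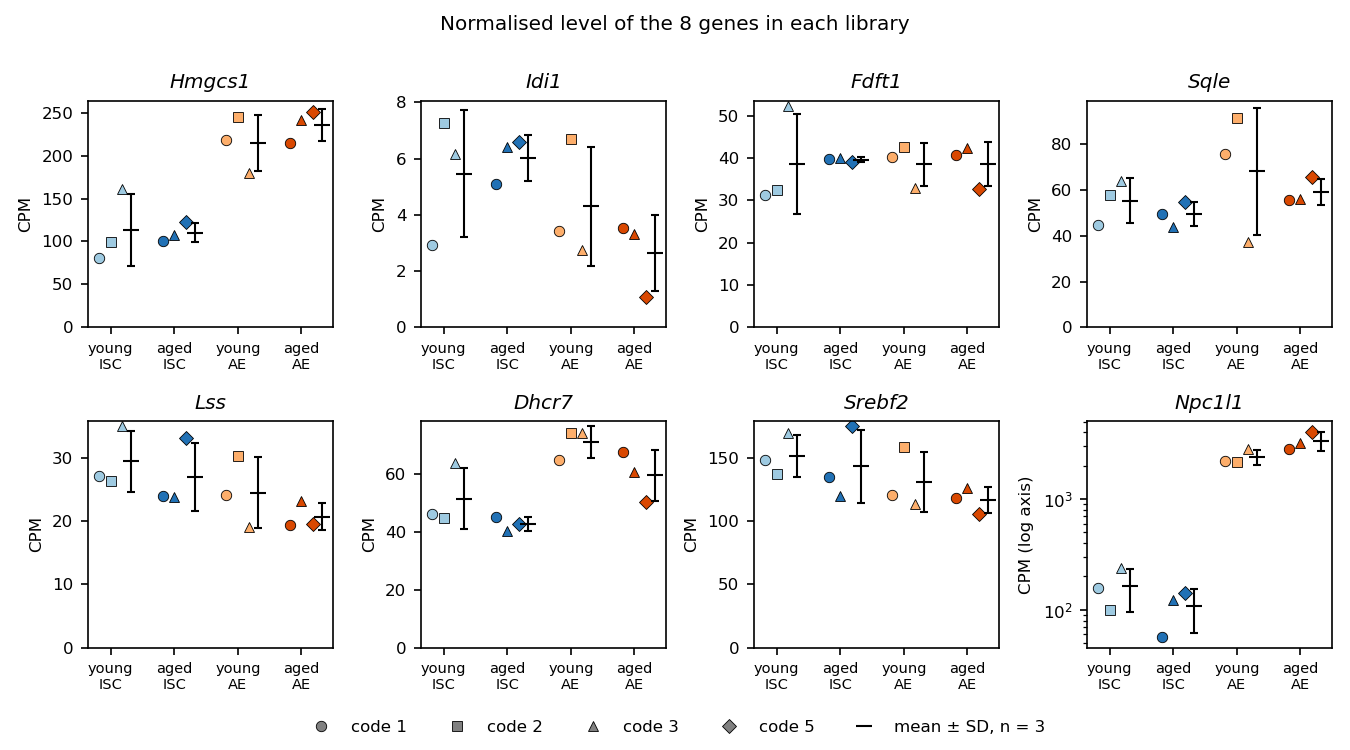
Level of each of the 8 genes (y axis, CPM, linear from 0 except for *Npc1l1*, which has a log axis) in the 12 libraries, by group (x axis). Marker shape gives the library code and the black bar gives mean ± SD of 3 libraries. On this TMM scale, *Hmgcs1* and *Npc1l1* lie higher in every AE library than in every ISC library, and no gene separates young from aged.

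The first question is how AE, the cells that absorb, differ from ISC, the cells that renew them. On the main scale, trimmed mean (TMM) normalisation, 2 genes were higher in young AE than in young ISC, *Npc1l1* and *Hmgcs1*, and none was lower. In aged mice, *Npc1l1*, *Hmgcs1* and *Dhcr7* were higher in AE and *Idi1* was lower. *Fdft1*, *Sqle*, *Lss* and *Srebf2* passed the test at neither age. At FDR < 0.05 in edgeR's quasi-likelihood test, 28.9% of 16681 genes tested were higher and 26.7% lower in young AE, and 30.6% of 15855 were higher and 34.2% lower in aged AE, and beside such shares the calls in 2 of 8 and 4 of 8 genes are not a result about these genes as a set.

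Calls and signs of several of the 8 genes, however, depend on the choice of scale. ISC and AE libraries had TMM factors of 1.26 to 1.37 and 0.720 to 0.823, and the 10 most abundant genes took 4.17% to 6.06% of the counts in ISC but 8.50% to 13.1% in AE. With plain CPM of all counts in place of TMM, an alternative added after the data were seen, the median log2 fold change of all genes moved by -0.71 in young and by -0.78 in aged mice. The share of called genes that were higher in AE went from 51.9% to 26.2% for young mice and from 47.2% to 24.5% for aged mice. On that scale *Npc1l1* stayed higher, *Hmgcs1* was no longer called, the estimate for *Dhcr7* turned negative, and *Fdft1*, *Lss* and *Srebf2* were called lower at both ages.

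*Npc1l1* (chr11:6211013-6230143, GRCm38) had 157, 99.5 and 238 CPM in young ISC of codes 1, 2 and 3, and 2196, 2183 and 2844 CPM in young AE of the same codes. In aged ISC of codes 1, 3 and 5 it had 56.5, 123 and 143 CPM, and in aged AE 2841, 3185 and 4072 CPM. Every AE library lay far above every ISC library at both ages. The log2 fold change was 3.87 (SE 0.37, FDR = 0.000140) in young mice, or 14.6-fold, with a 95% interval of 8.19 to 26.0. It was 4.89 (SE 0.40, FDR = 2.44e-06) in aged mice, or 29.8-fold, with an interval of 16.1 to 54.9. Under all 15 alternatives at each age it was called, with log2 values of 3.17 to 4.23 for young mice and 4.11 to 5.15 for aged mice.

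The enterocyte markers were, like *Npc1l1*, far higher in every AE library than in every ISC library. Within groups the order of libraries by *Npc1l1* and by these markers was the same only in young ISC. *Npc1l1* amounted to 2.22% to 3.37% of the summed level of the 20 enterocyte markers in young ISC and to 2.05% to 4.67% in aged ISC. In AE the same ratio was 2.35% to 2.77% in young and 2.52% to 3.34% in aged mice. The ratio in ISC therefore overlapped that in AE, while the level itself differed many-fold. *Hmgcs1*, by contrast, was at 1.50% to 5.24% of that sum in ISC and at 0.175% to 0.273% in AE. What part of the *Npc1l1* reads in ISC comes from enterocyte transcripts in those libraries was not tested.

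**Figure D2:**
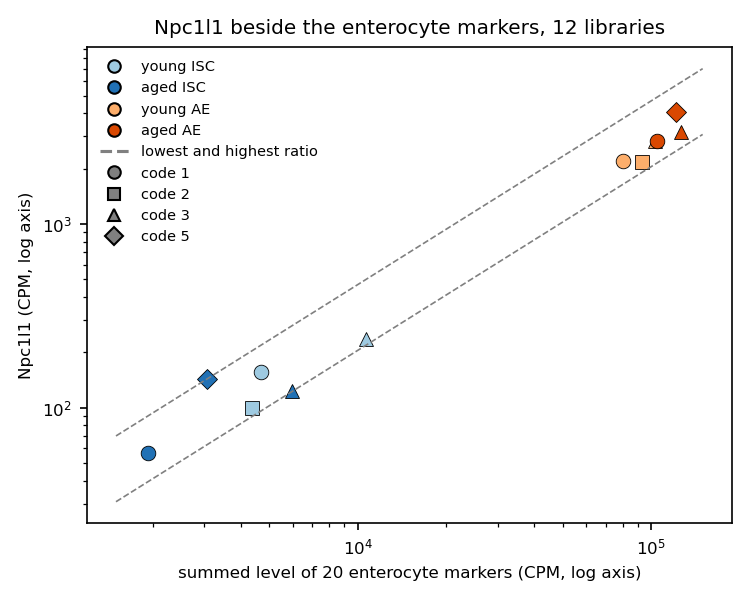
*Npc1l1* level (y axis, CPM, log axis) against the summed level of 20 enterocyte markers (x axis, CPM, log axis) in the 12 libraries, colour giving the group and shape the library code. The dashed lines mark the lowest and highest ratio of the 12, 2.05% and 4.67%, both from aged ISC, and AE libraries lie from 2.35% to 3.34%.

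*Hmgcs1* (chr13:119690379-119708260), whose enzyme forms HMG-CoA at the entry to the mevalonate pathway, had 81.3, 99.0 and 161 CPM in young ISC of codes 1, 2 and 3 and 219, 245 and 180.2 CPM in young AE. In aged ISC of codes 1, 3 and 5 it had 101, 108 and 123 CPM, and in aged AE 215, 241 and 251 CPM. The groups did not overlap at either age, although young ISC code 3 came close to young AE code 3. The log2 fold change was 0.91 (SE 0.26, FDR = 0.0172) in young and 1.02 (SE 0.16, FDR = 0.000214) in aged mice. As a plain share of counts, however, *Hmgcs1* took 0.0107% to 0.0203% of young ISC and 0.0136% to 0.0202% of young AE libraries, and the log2 fold change fell to 0.23 (FDR = 0.474) in young and 0.24 (FDR = 0.185) in aged mice. The call in young mice was also lost, at FDR = 0.0520 to 0.0680, without either of young ISC codes 1 and 2 or either of young AE codes 1 and 2.

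*Idi1* (chr13:8885501-8892451) encodes the isomerase that makes dimethylallyl diphosphate, and its counts were the lowest of the 8, from 10 to 231 per library. It had 2.93, 7.27 and 6.18 CPM in young ISC and 3.44, 6.70 and 2.76 CPM in young AE. Aged ISC had 5.08, 6.42 and 6.57 CPM and aged AE 3.52, 3.32 and 1.09 CPM. The young groups overlapped, and the aged groups did not. The log2 fold change of AE against ISC was -0.40 (SE 0.45, FDR = 0.471) in young and -1.23 (SE 0.37, FDR = 0.0131) in aged mice, and the second was called under all alternatives run. Aged AE code 5, with only 10 counts, was the lowest value, and without it the aged difference was -0.87 and still called.

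*Dhcr7* (chr7:143823145-143848410) encodes the reductase that turns 7-dehydrocholesterol into cholesterol. It had 46.0, 44.8 and 63.7 CPM in young ISC and 64.7, 74.1 and 74.1 CPM in young AE. Aged ISC had 45.1, 40.4 and 42.6 CPM, and aged AE had 67.5, 60.8 and 50.2 CPM. AE was above ISC without overlap at both ages, in young mice by a narrow margin. The log2 fold change was 0.46 (SE 0.18, FDR = 0.0552) in young and 0.41 (SE 0.16, FDR = 0.0432) in aged mice. The young difference was called with the library code as a replicate block (0.48, FDR = 0.0342), with a stricter filter on low counts (FDR = 0.0366), in a fit on all 4 groups (FDR = 0.0274) and without young ISC code 3 (0.64, FDR = 0.0188). The aged call was lost when any 1 library other than aged AE code 5 was left out, without a filter on low counts and under upper-quartile scaling. On plain CPM the estimate turned to -0.24 (FDR = 0.257) in young and -0.37 (FDR = 0.0664) in aged mice.

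*Fdft1* (chr14:63145150-63179578), the squalene synthase gene, was level across the groups on the TMM scale, with means of 38.6 ± 11.8 CPM in young and 39.6 ± 0.585 CPM in aged ISC, and of 38.5 ± 5.06 CPM in young and 38.6 ± 5.18 CPM in aged AE (SD, n = 3). Its differences between AE and ISC were -0.01 (95% interval -0.53 to 0.52) in young and -0.11 (-0.46 to 0.24) in aged mice. The 3 aged ISC libraries agreed to within 1.48% (coefficient of variation), the tightest of any gene and group here. On plain CPM, *Fdft1* was lower in AE by 0.70 in young mice (log2, FDR = 0.0290) and by 0.89 in aged mice (FDR = 0.000563).

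*Sqle* (chr15:59315077-59331192) encodes squalene epoxidase, a rate-limiting oxygen-requiring step. Young ISC had 44.5, 57.7 and 63.7 CPM and young AE 75.8, 91.3 and 37.2 CPM. Aged ISC had 49.7, 44.0 and 54.5 CPM and aged AE 55.6, 56.0 and 65.6 CPM. The young AE libraries spanned the whole range of the gene, from its lowest to its highest value. The log2 fold change of AE against ISC was 0.29 (95% interval -0.44 to 1.03) in young and 0.18 (-0.15 to 0.52) in aged mice. On plain CPM it was -0.39 (FDR = 0.343) in young and -0.60 (FDR = 0.00597) in aged mice.

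*Lss* (chr10:76531588-76557138), which encodes the lanosterol synthase that closes the sterol rings, had means of 29.4 ± 4.79 CPM in young and 26.9 ± 5.37 CPM in aged ISC, and of 24.4 ± 5.57 CPM in young and 20.7 ± 2.11 CPM in aged AE (SD, n = 3). The difference of AE against ISC was -0.27 (SE 0.22, FDR = 0.308) in young and -0.45 (SE 0.19, FDR = 0.0582) in aged mice, where the groups did not overlap. *Srebf2* (chr15:82147266-82205376 in the count table) had means of 152 ± 16.6, 144 ± 29.0, 131 ± 24.1 and 117 ± 10.2 CPM in the same order. Its difference was -0.21 (SE 0.18, FDR = 0.332) in young and -0.37 (SE 0.18, FDR = 0.0935) in aged mice. Both were called lower in aged AE under upper-quartile scaling, with *Lss* at -0.54 and *Srebf2* at -0.46, and in both ages on plain CPM, where *Srebf2* was at -0.91 in young and -1.16 in aged mice and *Lss* at -0.97 and -1.24. Under every alternative run, the estimate for *Srebf2*, the pathway's transcription factor, was below 0 at both ages.

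**Figure D3:**
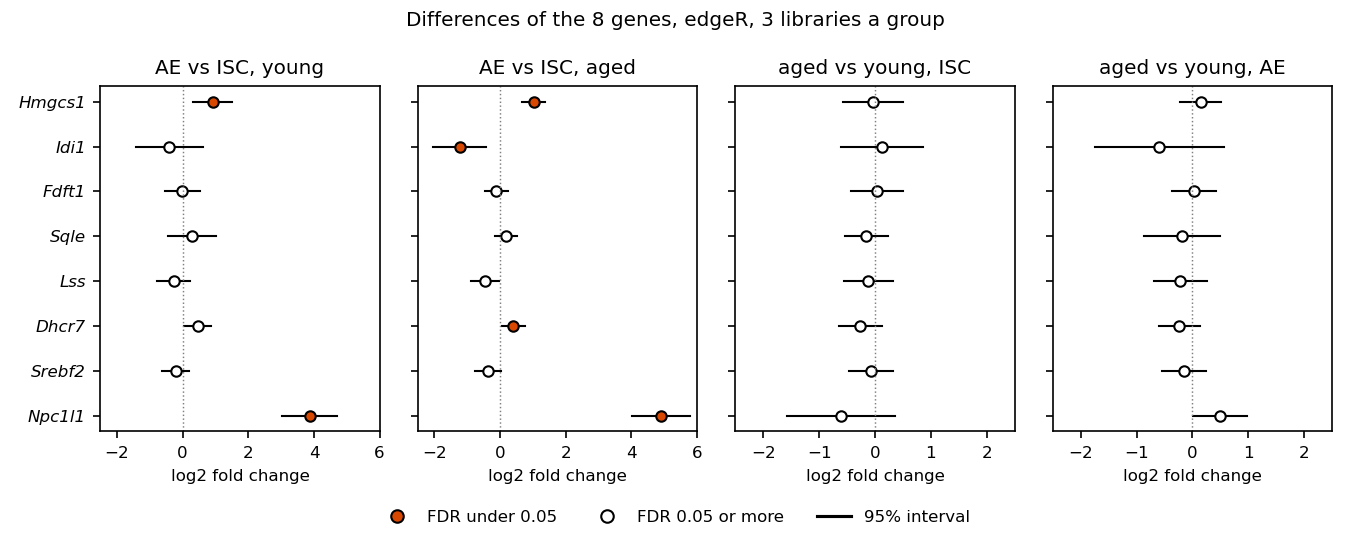
Log2 fold change (x axis) of the 8 genes (y axis) on the TMM scale, for AE against ISC in young and aged mice and for aged against young in ISC and AE. Points are estimates, lines are 95% intervals, and filled points have FDR < 0.05. Calls appear only between the cell types, and *Npc1l1* stands apart from the enzymes.

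The second question is whether the genes differ with age. None of the 8 was called in ISC and none in AE by edgeR, and DESeq2 called none either. At an unadjusted P < 0.05, edgeR gave 0 of 8 in ISC and 1 of 8 in AE, against 784 of 15552 and 779 of 16265 among all genes. Of all genes, edgeR called 0 in each cell type and DESeq2 58 in ISC and 18 in AE. For no gene of the 8 did the young and aged groups separate without overlap, while 8.86% of all genes tested did so in ISC and 10.9% in AE.

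The intervals show how large a difference these libraries leave possible. In ISC, the log2 fold changes of aged against young were -0.04 for *Hmgcs1* (95% interval -0.58 to 0.51), 0.04 for *Fdft1* (-0.42 to 0.51) and -0.07 for *Srebf2* (-0.47 to 0.32). *Sqle*, *Lss* and *Dhcr7* were at -0.16, -0.12 and -0.26, and *Idi1* at 0.13 with an interval of -0.60 to 0.87. In AE, *Hmgcs1* was at 0.15 (-0.21 to 0.52), *Fdft1* at 0.03 (-0.37 to 0.42) and *Srebf2* at -0.15 (-0.54 to 0.24). *Sqle*, *Lss* and *Dhcr7* were at -0.18, -0.21 and -0.24 there, and *Idi1* at -0.59 with the widest interval, -1.74 to 0.56. The median over the 8 genes was -0.10 in ISC and -0.16 in AE, beside 0.01 and -0.04 over all genes tested.

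*Npc1l1* had the largest age differences of the 8 in ISC and, apart from *Idi1*, in AE, and the estimates had opposite signs. In ISC, aged libraries had 107 ± 45.3 CPM against 165 ± 69.4 CPM in young (SD, n = 3), a log2 fold change of -0.61 (SE 0.41, 95% interval -1.57 to 0.36). In AE, aged libraries had 3366 ± 635 CPM against 2408 ± 378 CPM, a log2 fold change of 0.50 (SE 0.21, interval 0.02 to 0.98, FDR = 0.844), the 1 gene of the 8 with an unadjusted P < 0.05. The AE groups overlapped by the narrowest margin, since young AE code 3 had 2844 and aged AE code 1 had 2841 CPM. The difference between the age effects was 1.10 (SE 0.49, 95% interval 0.04 to 2.16, FDR = 1.00) and was not called. With 1 library left out, the AE value lay between 0.35, without aged AE code 5, and 0.65, without young AE code 3, the deepest library. The ISC value lay between -0.87, without young ISC code 2, and -0.24, without young ISC code 3, and was -0.30 without aged ISC code 1. None of these was called.

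All 20 enterocyte markers had the same pair of signs as *Npc1l1*, negative in aged ISC with a median log2 fold change of -0.90 and positive in aged AE with a median of 0.34, with 0 called in either by edgeR or by DESeq2 (which gave 1 of them no adjusted P in ISC) and an unadjusted P < 0.05 for 4 and 1 of them. The difference between their age effects was positive for all 20, with a median of 1.07, an unadjusted P < 0.05 for 9 and a call for 0. Over all 17377 genes tested for that difference, 675 (3.88%) had an unadjusted P < 0.05. Their sum was 4361 to 10699 CPM in young and 1923 to 5987 CPM in aged ISC, and 80149 to 102826 CPM in young and 104755 to 126477 CPM in aged AE. The part of these markers in the *Npc1l1* values was not tested. For the other 7 genes, the difference between the age effects ranged from -0.74 (*Idi1*, SE 0.62) to 0.18 (*Hmgcs1*, SE 0.31), and none had an unadjusted P < 0.05.

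The other genes of the pathway were taken as 5 lists by role, 39 genes in all, each tested in every comparison. With age, 0 of 39 were called in ISC or AE by edgeR, and DESeq2 called none. At an unadjusted P < 0.05 in edgeR there were 1 in ISC, *Scarb1*, and 4 in AE, *Stard4*, *Abca1*, *Fasn* and *Elovl6*. Over all genes tested, the share at that threshold was 5.04% in ISC and 4.79% in AE. Between AE and ISC, 17 were called higher and 10 lower in young mice, and 20 higher and 12 lower in aged mice, on the TMM scale. On plain CPM the balance turned, with 11 higher and 14 lower in young mice and 12 higher and 19 lower in aged mice. Over all genes tested, 28.9% were called higher and 26.7% lower in young AE, and 30.6% and 34.2% in aged AE, on the TMM scale. On plain CPM, 2614 of 16681 were called higher and 7382 lower in young AE. In aged AE, 2776 of 15855 were called higher and 8564 lower. The balance therefore moved toward lower in AE over all genes too.

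Of the 6 other genes of the mevalonate and isoprenoid steps described here, *Acat2* was lower in AE at both ages, *Mvd* was lower in aged mice, and *Mvk*, *Pmvk*, *Fdps* and *Ggps1* passed at neither age. On plain CPM 3 of the 6 were lower in young and all 6 in aged mice. *Acat2*, the cytosolic thiolase that feeds *Hmgcs1*, fell from 34.5 ± 8.95 to 15.8 ± 4.56 CPM in young mice (SD, n = 3; log2 fold change -1.13, FDR = 0.00824), and was lower on plain CPM too (-1.83). *Acat2* and *Hmgcs1* encode consecutive steps. On the TMM scale the first was lower in AE and the next higher, while on plain CPM *Hmgcs1* was called at neither age.

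Of the 8 other genes of the sterol steps described here, 4 were higher in AE at both ages, *Msmo1*, *Hsd17b7*, *Ebp* and *Sc5d*, and *Lbr* was lower, while *Cyp51*, *Tm7sf2* and *Nsdhl* passed at neither age. *Sc5d*, the desaturase just before *Dhcr7*, went from 47.7 ± 15.6 to 194 ± 38.1 CPM in young mice (log2 fold change 2.02, SE 0.26, FDR = 0.000417). It was also called higher on plain CPM at both ages, whereas *Ebp*, at 0.51 in young and 0.44 in aged mice, changed sign there. *Lbr*, which encodes a sterol reductase of the inner nuclear membrane, was at -2.27 in young and -3.11 in aged mice (log2 fold change). The other C14 sterol reductase gene, *Tm7sf2*, was at 0.39 and 0.31, called at neither age, and on plain CPM at -0.32 and -0.47, the second of these called. Its level per kb of merged exon over that of *Lbr* had a median of 0.219 in young ISC and 1.80 in young AE, and of 0.196 and 1.82 in aged mice. This ratio too depends on the annotated exon lengths. On plain CPM, 1 of the 8 was called higher and 2 lower in young mice, and 2 higher and 4 lower in aged mice. There *Nsdhl* was called lower at both ages (-0.84 and -1.04), *Hsd17b7* was called at neither, and *Msmo1* was called higher in aged mice only.

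**Figure D4:**
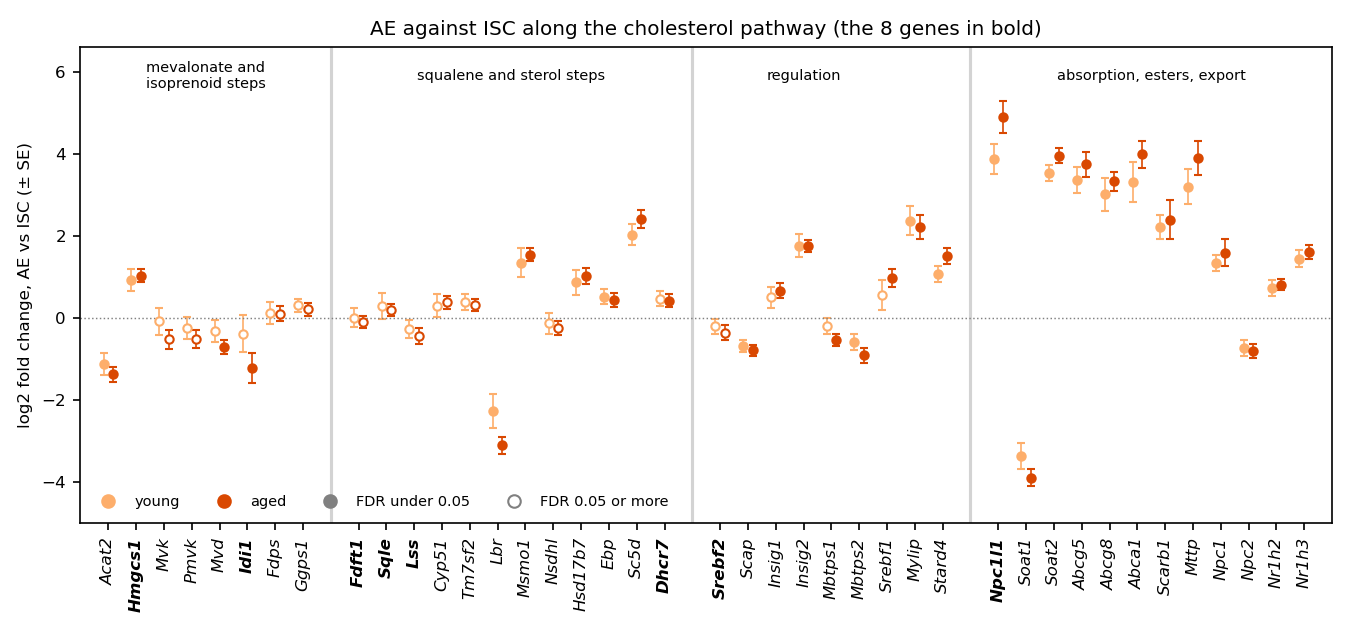
Log2 fold change of AE against ISC (y axis, ± SE, TMM scale) for 41 cholesterol genes by role (x axis, the 8 genes in bold), in young (light) and aged (dark) mice. Filled points have FDR < 0.05. *Npc1l1* lies highest at both ages, 9 of the 11 other absorption genes lie above 0 with *Soat1* and *Npc2* below it, and the 6 enzymes in bold lie between -1.23 and 1.02.

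Of 8 genes of SREBP2 regulation, 3 were higher and 2 lower in young AE, and 5 were higher and 3 lower in aged AE. On plain CPM these counts were 2 and 3 in young and 3 and 3 in aged AE. *Insig2*, which retains SREBP2 in the endoplasmic reticulum, went from 19.1 ± 5.02 to 64.3 ± 22.6 CPM in young mice (log2 fold change 1.75, FDR = 0.00122). *Scap*, the escort of SREBP2, went from 86.6 ± 8.72 to 53.5 ± 2.05 CPM (-0.69, FDR = 0.00380), and *Mbtps2*, a protease that frees it, from 24.4 ± 3.36 to 16.1 ± 2.64 CPM (-0.60, FDR = 0.0319). These 3 kept their direction and call on plain CPM and in aged mice. *Mylip*, a ubiquitin ligase gene induced by LXR, rose by 2.37 on the log2 scale, and by 1.65 on plain CPM. *Insig1* was at 0.50 (FDR = 0.131) in young and 0.66 (FDR = 0.00869) in aged mice. On plain CPM it changed sign at both ages, to -0.21 and -0.13. On the TMM scale *Mbtps1* and *Srebf1* were called in aged mice only, the first lower and the second higher. *Stard4* was higher at both ages, by 1.06 (FDR = 0.00187) in young mice, and on plain CPM it was called in aged mice only.

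All 11 other genes of absorption, esterification, export and LXR signalling were called at both ages, 9 higher and 2 lower in AE. *Soat2* went from 39.2 ± 6.27 to 452 ± 47.0 CPM in young mice (log2 fold change 3.53, FDR = 5.43e-05), and *Soat1*, its counterpart in most other tissues, from 169 ± 37.6 to 16.4 ± 5.94 CPM (-3.38, FDR = 0.000158). The level of *Soat2* per kb of merged exon over that of *Soat1* was 0.801 to 1.57 in young ISC and 86.1 to 186 in young AE. This ratio depends on the annotated exon lengths. By CPM alone, *Soat2* lay well below *Soat1* in young ISC. *Abcg5* and *Abcg8* rose by 3.36 and 3.01, *Mttp*, which loads lipid onto chylomicrons, by 3.20, and *Abca1* by 3.31 on the log2 scale. *Npc2*, a lysosomal cholesterol carrier, fell by 0.74. On plain CPM, 8 of the 11 were still called higher in young and 7 in aged mice, and none changed sign. *Npc1l1*, at 3.87 and 4.89, lay above every gene of this list at both ages.

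Of 6 genes of fatty acid synthesis, kept as a comparison because SREBP1 drives them, *Fasn*, *Acaca*, *Acly* and *Acss2* were lower in AE at both ages, *Elovl6* was higher, and *Scd1* was higher in aged mice only. *Fasn*, the fatty acid synthase gene, went from 195 ± 14.3 to 66.0 ± 22.8 CPM in young mice (log2 fold change -1.57, FDR = 0.000933). The 4 lower genes were lower on plain CPM too. On that scale no gene of the list was called higher: *Elovl6* was at 0.29 (FDR = 0.359) in young and turned to -0.31 (FDR = 0.0641) in aged mice, and *Scd1* was at 2.85 (FDR = 0.0620) in aged mice. *Fasn* and *Acly* fell where *Hmgcs1* rose on the TMM scale.

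The spread among libraries of a group was shared in part by the enzymes. Taking each library's log2 CPM minus the mean of its group, all 15 pairs among the 6 enzymes had a positive correlation over the 12 libraries, from 0.01 for *Sqle* with *Dhcr7* to 0.79 for *Hmgcs1* with *Fdft1*, with a median of 0.50. Over all pairs of 12642 genes at 1 CPM or more, the median was 0.00 and 49.9% were positive. *Srebf2* correlated with each enzyme, from 0.48 to 0.92, the highest with *Lss* and the others at 0.48 to 0.55. The promoters of *Srebf2* and *Lss* shown above both hold a CCAAT box and a GC box, as do those of *Hmgcs1* and *Idi1* and 1 start site of *Dhcr7*. Of all promoters, 37.4% hold the first and 35.7% the second. Whether these boxes have a part in the correlations was not tested. *Npc1l1* had values from -0.20 to 0.48 with the enzymes. These are descriptions: the 12 points share 4 group means, a code number ties ISC to AE libraries, and all genes of a library share its depth and scale.

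The deviations by library show where the enzymes moved together. In young ISC code 3, all 6 enzymes were above the mean of their group, by 0.35 on average on the log2 scale, and in young ISC code 1 none was, at -0.34 on average. In young AE code 2 all 6 were above it, by 0.33, and in the deep young AE code 3 only 1 was, *Dhcr7*, at -0.34. The aged groups were mixed. Enzymes above the mean numbered 3, 2 and 4 in aged ISC of codes 1, 3 and 5, and 3, 5 and 2 in aged AE. The young AE libraries also differed in crypt transcripts: stem cell markers summed to 226, 644 and 97.0 CPM and 12 proliferation markers to 179, 514 and 105 CPM in codes 1, 2 and 3. *Sqle*, at 75.8, 91.3 and 37.2 CPM, and *Lss*, at 24.1, 30.2 and 19.1 CPM, followed the same order. So did *Hmgcs1*, *Idi1*, *Fdft1* and *Srebf2*, while *Dhcr7* and *Npc1l1* did not. In young ISC of codes 1, 2 and 3, stem cell markers summed to 8168, 7136 and 6065 CPM and proliferation markers to 2134, 2024 and 1900 CPM. The mean enzyme deviation ran in the reverse order there, at -0.34, -0.02 and 0.35. In aged ISC it followed the order of the stem cell markers but not of the proliferation markers. In aged AE it followed neither. The share of all genes with the young AE order is not given. Whether these markers have a part in the enzyme values was not tested. Without young AE code 2, the difference of *Sqle* between young AE and ISC went from 0.29 to -0.09, and without code 3 to 0.53, called in neither.

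**Figure D5:**
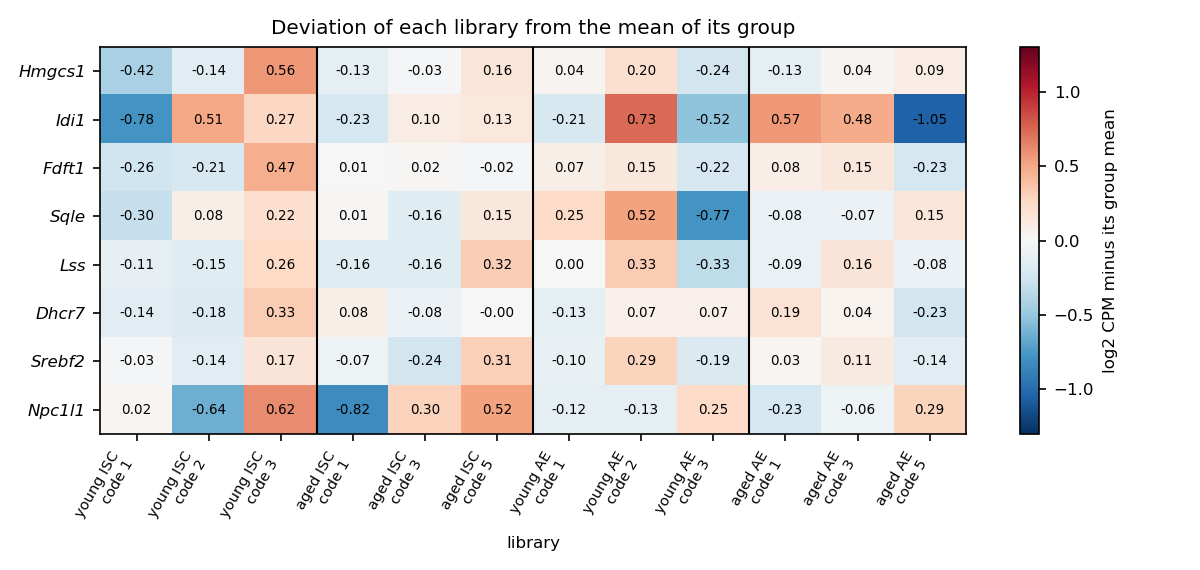
Log2 CPM minus the mean of its group, for the 8 genes (rows) in the 12 libraries (columns, by group and code), red above and blue below the mean. The columns of young ISC code 3 and young AE code 2 are red for all 6 enzymes. *Npc1l1* is above its group mean in the first of these and below it in the second.

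The genes most like these 8 over the 12 libraries were found by Pearson's correlation of log2 CPM. For the mean of the 6 enzymes, the nearest of 12636 genes were *Ssr3* (0.83), *Cyp51* (0.81), *Fdps* (0.79), *Alppl2* (0.78) and *Gm43191* (0.78). *Cyp51* and *Fdps* are enzymes of the same pathway, and among the other genes of the 5 lists *Elovl6* came next at 0.69. For *Npc1l1*, the nearest of 12641 genes were *Trim30d*, *Mep1a*, *Gdpd2*, *Igsf3* and *Tmem236*, all at 1.00 when rounded. *Abcg5*, at 0.99, was the nearest gene of the lists, and *Soat1*, at -0.98, the farthest. The values for *Npc1l1* go with its large contrast between AE and ISC, and all of them are descriptions over libraries that share 4 groups.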

How the data were processed

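RNA was measured by single-end sequencing of 50 bp in 12 libraries. Per the labels' processing notes and the study's methods, the authors trimmed reads with Trim Galore 0.4.4, mapped them to GRCm38 with HISAT2 2.1.0 and counted them per gene over merged exons in SeqMonk, and the raw counts they deposited are used here. The annotation release is not given in the sources used here. The authors also deposited a table of selected genes, with log2 values and results of their own DESeq2 comparisons, which holds none of the 8 genes and was not used.

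Of the 12 titles GEO holds, 8 carry a code that points to another group than their wording does. Each column was therefore given the group that its own name spells, and none was joined to a sample. Ages of 3 mice per cohort are given in the study's methods, but no source ties a library to a mouse, so P-values measure the spread between these libraries, which may be technical. ISC and AE libraries of the same code deviated together (correlations 0.213 to 0.431 in 6 of 6 pairs, against -0.376 to 0.110 in 12 pairs of different codes), and an alternative fit had the code as its replicate block.

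Genes with at least 10 counts over a comparison's libraries were tested with edgeR 4.0.16 in R 4.3.3 (TMM factors, robust quasi-likelihood fit, Benjamini-Hochberg adjustment over all genes tested, FDR < 0.05), which was tested on simulated data. Levels are counts per library size in CPM, scaled by TMM over all 12 libraries, and log2 CPM has a prior count of 2. Alternatives were DESeq2 1.42.0, RLE, upper-quartile and total-count scaling, other filters (none, or 1 CPM in 3 libraries), a fit on all 4 groups, an earlier form of the test, the block, and leaving out each library. Total-count scaling and the earlier form were added after the data were seen. The 8 genes, the lists and the motifs were chosen with earlier results of these data known. Of the pathway lists, 4 genes are not reported here. The genes named are the 8, the other members of the pathway lists and the 5 genes most correlated with the enzymes' mean or with *Npc1l1*. The lists of Paneth, enteroendocrine, tuft, immune and stromal markers were summed as well.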

Additional observations from a re-analysis of the deposited data

How the results depend on the processing

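Over 624 values of single genes under alternatives, 549 kept direction and side of the threshold, 13 lost a call, 14 gained one and 48 changed sign, 34 of these when a library was left out. The count of genes called between young AE and ISC (2) was 4 under total-count scaling and 1 to 3 when a library was left out, at 1 without young ISC code 1 or 2 or young AE code 1 or 2. Between aged AE and ISC the count (4) was 5 under upper-quartile scaling and 3 without a filter on low counts. Under total-count scaling, *Hmgcs1* and *Dhcr7* lost their aged calls, and *Fdft1*, *Sqle*, *Lss* and *Srebf2* were called lower in aged AE. Signs changed under total-count scaling for *Hmgcs1* with age in ISC (0.0044), *Fdft1* with age in AE (-0.11), *Sqle* (-0.39 young, -0.60 aged) and *Dhcr7* (-0.24, -0.37) between AE and ISC, and *Dhcr7* in the difference of age effects (-0.14). *Fdft1* between young AE and ISC was 0.028 with the stricter filter and 0.021 with the replicate block. In the difference of age effects, *Fdft1* was 0.0093 with DESeq2 and 0.0090 with RLE scaling, *Sqle* 0.00023 with RLE scaling and 0.040 with the block, and *Dhcr7* -0.0047 with the block. The block changed no call but that of *Dhcr7* in young mice.

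With a library left out, the signs that changed lay within these ranges. With age in ISC they were -0.23 to 0.30 for *Hmgcs1*, -0.16 to 0.39 for *Idi1*, -0.091 to 0.32 for *Fdft1*, -0.29 to 0.024 for *Lss* and -0.24 to 0.039 for *Srebf2*. With age in AE they were -0.076 to 0.14 for *Fdft1*, -0.48 to 0.10 for *Sqle* and -0.24 to 0.021 for *Srebf2*. Between AE and ISC they were -0.18 to 0.27 for *Fdft1* and -0.086 to 0.53 for *Sqle* in young mice, and -0.20 to 0.0062 for *Fdft1* in aged mice. In the difference of age effects they were -0.16 to 0.37 for *Hmgcs1*, -0.31 to 0.10 for *Fdft1*, -0.37 to 0.22 for *Sqle*, -0.30 to 0.072 for *Lss*, -0.17 to 0.11 for *Dhcr7* and -0.23 to 0.089 for *Srebf2*. Apart from the change of scale itself, the cause of these changes was not tested. With 3 libraries a group, depth limits *Idi1* most, at 10 to 231 counts per library.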

Other observations

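The remaining marker lists describe what else the sorted cells held. In ISC, 5 Paneth cell markers summed to between 434 and 1316 CPM, and in AE to between 34.0 and 166 CPM. Of 6 enteroendocrine markers the sum was 240 to 861 CPM in ISC and 2893 to 10554 CPM in AE, and of 6 tuft cell markers 95.8 to 342 CPM in ISC and 251 to 724 CPM in AE. Markers of T cells, of monocytes, macrophages and neutrophils, and of stroma and endothelium each summed to at most 25.7 CPM in any library.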
